A study of Mus musculus with 36 samples.

Results

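The genes described here are 9 genes that mark or drive the passage of a cortical progenitor into a neuron: Neurog1, Neurog2, Eomes, Insm1, Neurod1, Neurod2, Tbr1, Dcx and Tubb3. They were chosen by name, and all 9 were found among the 40205 gene features of the count tables, of which 31069 had at least 1 count in any library. Their RNA was measured in 36 libraries, 18 from fetal neural stem cells (NSCs) of the mouse dorsal telencephalon, grown as neurospheres, and 18 from the extracellular vesicles (EVs) that the same cultures released into the medium. Tissue of the fetuses of 1 sex was pooled within each of 3 pregnancies (sets 3, 4 and 5), giving 3 female cultures (3F, 4F, 5F) and 3 male cultures (3M, 4M, 5M). Each culture was grown for 5 days in 0 (control), 120 (moderate) or 320 mg/dL (high) ethanol, so that every combination of location, sex and dose had 3 libraries from 3 pregnancies. The mice are C57BL/6J of genotype WT in the labels and C57BL/6J (Ai14), a reporter line, in the study's methods. The cultures were kept in mitogenic medium and passaged before use, and an EV library and its cell library come from the same flasks.

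In the developing cortex, the proneural basic helix-loop-helix factors Neurog1 and Neurog2 start neurogenesis in radial glia by switching on further transcription factors, among them Neurod1, Neurod2 and Eomes (also called Tbr2). Eomes and the zinc finger factor Insm1 mark intermediate progenitors, Tbr1 marks early-born deep-layer glutamatergic neurons, and Dcx and Tubb3 encode a microtubule-associated protein and a beta-tubulin of young neurons. Notch signaling and its Hes effectors hold this sequence back. Proneural factors bind DNA at E-boxes, whose core letters are CANNTG.

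The 9 genes lie on 7 chromosomes of GRCm39. Neurog1 (chr13:56398291-56399976, minus strand) and Insm1 (chr2:146063841-146066940, plus strand) are each a single exon, so that their reads carry no splice junction. Neurog2 lies at chr3:127426448-127429280 (plus), Tbr1 at chr2:61633274-61644458 (plus), Dcx at chrX:142638838-142716307 (minus) and Tubb3 at chr8:124138163-124150092 (plus). Eomes (chr9:118307280-118315200, plus), Neurod1 (chr2:79282865-79287294, minus) and Neurod2 (chr11:98216241-98220480, minus) share exonic bases with other genes. Eomes overlaps the antisense lncRNAs Gm33408 and Gm33460, Neurod2 the antisense lncRNAs Gm33099 and Gm71805, and Neurod1 the antisense lncRNA Gm54165 and, over 204 bases of the same strand, Cerkl. The library kit keeps strand, but whether the counting used strand is not given in the sources used here, so counts of these 3 genes are uncertain.

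RefSeq promoter windows were on hand for 8 of the 9 members. In each, the stretch of 250 bases before the RefSeq start was searched for CANNTG, which reads the same on both strands. CANNTG occurred in the windows of 3 members (Tbr1, Neurod1 and Neurod2), against 66.2% of all 32851 windows. GENCODE exons of the same strand cover all 250 bases of the Tbr1 window, 196 of the Neurod1 window and 9 of the Neurod2 window. CAGATG or its reverse complement CATCTG, each also a CANNTG match, occurred in Neurod2 alone of the 8, against 14.4% of all windows. A match is a description of letters and not of binding. The windows of 3 members are given with the bases 5′ of the first annotated GENCODE exon, 5′ to 3′, with CANNTG in capitals. Neurog1 is shown as the proneural gene with the largest difference between EVs and cells, Dcx as the member with the clearest differences between cultures, and Neurod2 as the window with the most E-boxes.
Neurog1 (GRCm39 chr13:56399994-56400243, minus): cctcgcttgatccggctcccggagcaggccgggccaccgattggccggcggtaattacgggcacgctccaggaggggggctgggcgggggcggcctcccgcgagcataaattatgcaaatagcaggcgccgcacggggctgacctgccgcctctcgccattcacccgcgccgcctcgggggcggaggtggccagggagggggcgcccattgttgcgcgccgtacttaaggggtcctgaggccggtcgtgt
Dcx (GRCm39 chrX:142716308-142716465, minus): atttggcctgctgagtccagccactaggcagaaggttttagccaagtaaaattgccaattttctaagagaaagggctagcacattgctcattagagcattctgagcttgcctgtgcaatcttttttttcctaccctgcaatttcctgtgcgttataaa
Neurod2 (GRCm39 chr11:98220481-98220721, minus): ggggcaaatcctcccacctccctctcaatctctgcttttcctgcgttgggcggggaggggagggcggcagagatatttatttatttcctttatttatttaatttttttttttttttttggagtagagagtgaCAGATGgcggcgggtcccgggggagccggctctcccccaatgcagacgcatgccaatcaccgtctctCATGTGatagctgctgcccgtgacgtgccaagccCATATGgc
The Neurog1 and Dcx stretches hold no CANNTG, and that of Neurod2 holds 3.

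Library totals were 26.6 to 55.3 M counts in cells (M is 1000000 counts, median 37.8 M) and 0.959 to 5.51 M in EVs (median 3.83 M), and 6 EV libraries held under 2 M. These 6 were the 3F control, the 3M libraries at 120 and 320 mg/dL and all 3 libraries of 4F. The NSC label was checked against 9 markers. Vim (median 1168 CPM in cells), Slc1a3 (892 CPM), Fabp7 (721 CPM) and Nes (257 CPM) were high. Prom1 (22.3 CPM), Pax6 (16.3 CPM), Hes5 (13.4 CPM) and Emx2 (4.99 CPM) were far lower. Sox2, a defining marker, was listed at 0 in all 36 libraries. Whether the Sox2 zeros reflect absent RNA or the counting of reads was not tested. Markers of other lineages were present at uneven levels. The list of the ventral and interneuron lineage summed to 4.48 to 24.6 CPM in cells (median 17.4). Gad1 alone had a median of 13.1 CPM, above that of every member, and the other genes of this list 0.604 CPM or lower. Oligodendrocyte-lineage medians in cells were 256 CPM for Olig1, 88.7 for Olig2, 16.4 for Cspg4, 13.9 for Pdgfra and 0.978 for Sox10. Astrocyte medians in cells were 155 CPM for Slc1a2, 56.7 for Gfap, 12.3 for Aldh1l1, 8.70 for S100b and 0 for Aqp4. The summed microglial list stayed at 0.521 to 0.896 CPM in cells, the endothelial list at 1.29 to 2.75 CPM and the erythroid list at 0 to 0.185 CPM.

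Levels are given first as counts per 1000000 (CPM) scaled over all 36 libraries by the trimmed mean of M-values. In cells every member was low next to Vim, Slc1a3, Fabp7 and Nes, whereas Insm1 and Dcx had higher medians than Emx2. Insm1 was the most abundant, with 3.59 to 25.4 CPM (median 8.81), followed by Dcx with 1.23 to 13.3 CPM (median 5.31) and Tubb3 with 3.19 to 6.56 CPM (median 4.91). The 18 libraries spread widely in Insm1 and Dcx and little in Tubb3. Neurog1 ranged from 0.984 to 3.59 CPM (median 2.03) and Tbr1 from 0.377 to 3.38 CPM (median 1.79). Neurog2 reached 0.0156 to 1.45 CPM, which came from 1 to 53 counts per library. Eomes lay at 0.159 to 0.638 CPM, from 7 to 37 counts. Neurod1 and Neurod2, which act downstream of the neurogenins in the textbook cascade, were at the limit of detection, with 0 to 11 and 1 to 8 counts per library (medians of 0.0728 and 0.0871 CPM). In bulk RNA, fewer cells of a type and less RNA per cell cannot be told apart.

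In EVs the order of the members was another. Insm1 ranged from 10.0 to 185.0 CPM (median 20.9), Tbr1 from 6.01 to 61.7 CPM (median 19.4) and Neurog1 from 2.73 to 149 CPM (median 13.5). These 3 transcription factor genes had the 3 highest medians. The SD of Neurog1 (50.1 CPM) was above that of Insm1 (42.4 CPM), although the range of Insm1 was wider. Dcx ranged from 3.00 to 13.7 CPM (median 8.86) and Tubb3 from 1.70 to 7.76 CPM (median 3.86), from 1 to 15 counts for Tubb3. Neurog2 had 0 to 7 counts per EV library, Eomes 0 to 4, Neurod2 0 to 4 and Neurod1 0 to 1. Neurod1 was listed at 0 in 16 of 18 EV libraries, Eomes in 8, and Neurog2 and Neurod2 in 4 each. The depth of the EV libraries does not resolve these 4 genes in single libraries.

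Compared per kilobase of merged exons, the mean level in cells fell in the order Insm1 (3.31 ± 1.98 CPM per kilobase, SD, n = 18), Tubb3 (1.49 ± 0.317), Neurog1 (1.33 ± 0.479), Dcx (0.486 ± 0.330), Tbr1 (0.355 ± 0.171), Neurog2 (0.149 ± 0.149), Eomes (0.0888 ± 0.0353), Neurod1 (0.0258 ± 0.0192) and Neurod2 (0.0231 ± 0.0151). Each gene's range overlapped that of the next in this order. The intervals of mean ± SD did not overlap between Neurog1 and Dcx and between Eomes and Neurod1, and overlapped for the other neighbors. In EVs the order was Neurog1 (22.6 ± 29.7 CPM per kilobase, n = 18), Insm1 (11.8 ± 13.7), Tbr1 (4.67 ± 3.04), Tubb3 (1.17 ± 0.493) and Dcx (0.647 ± 0.289), with the other 4 at 0.303 or lower, and the intervals of mean ± SD overlapped for every pair of neighbors.

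**Figure D1:**
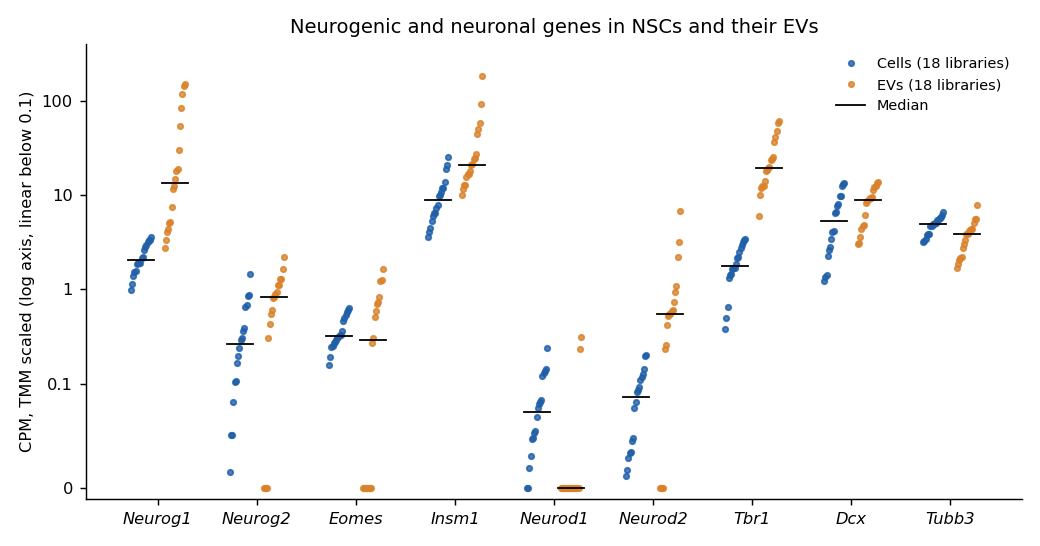
Level of each of the 9 genes (x axis) in CPM (y axis, log scale, linear below 0.1) in 18 cell libraries (blue points) and 18 EV libraries (orange points), with black bars at the medians. Neurog1, Tbr1 and Insm1 have higher medians in EVs (13.5, 19.4 and 20.9 CPM) than in cells (2.03, 1.79 and 8.81 CPM), and Neurod1 lies at 0 in 16 EV libraries.

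The first comparison asks which of these transcripts were higher or lower in EVs than in the cells that released them. Libraries were scaled by the trimmed mean of M-values, so the values are relative to the other genes counted and not shares of all RNA. Neurog1 and Tbr1 were much higher in EVs than in cells, Insm1 less so, Tubb3 was slightly lower and Dcx did not pass the test. For Neurog1 the log2 fold change was 3.82 ± 0.46 (SE, 14.1-fold), and its EV level was above its cell level in 6 of 6 cultures (averaged over doses). The log2 fold change of Tbr1 was 3.76 ± 0.31 (13.5-fold), again in 6 of 6 cultures, and its lowest EV library (6.01 CPM) lay above its highest cell library (3.38 CPM). Insm1 was higher by 1.81 ± 0.30 (3.50-fold), in 5 of 6 cultures, with overlapping ranges. Tubb3 was lower in EVs by a log2 fold change of -0.35 ± 0.15 (1.28-fold lower), in 6 of 6 cultures. Dcx had a log2 fold change of 0.39 ± 0.31 with a 95% interval from -0.25 to 1.02. The study reports high RNA integrity numbers for cells, but could not calculate them accurately for EV RNA. Any effect of RNA quality cannot be told apart from that of location in this comparison.

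Of the 5 members that passed the filter on low counts, 3 were thus higher (38.4% of all 15281 genes tested were) and 1 was lower (42.2% of all genes were). Adjusted p-values in edgeR's quasi-likelihood test were 1.71e-09 for Neurog1, 1.21e-13 for Tbr1, 9.61e-07 for Insm1, 0.0307 for Tubb3 and 0.253 for Dcx. The Tubb3 call was lost in DESeq2 (adjusted p = 0.0922), with median-of-ratios size factors (0.0824) and without any 1 of the 3 pregnancies (0.104 to 0.121). Over all genes the median log2 fold change was -0.08, and -0.88 when only library totals were used for scaling, which turned Dcx to -0.44, while Neurog1 (3.01), Tbr1 (2.87) and Insm1 (0.91) stayed higher in EVs and Tubb3 (-1.15) lower.

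The other 4 members had too few counts for this test, and their counts were pooled over the 18 libraries of each location. For Neurod2, 30 EV counts and 72 cell counts gave a pooled EV:cell ratio of 8.57 (95% interval 5.40 to 13.3). Of these 30 EV counts, 10 came from the libraries of culture 4F. Neurog2 had 39 and 319 counts and a ratio of 2.51 (1.75 to 3.51). Eomes had 22 and 340 counts and a ratio of 1.33 (0.823 to 2.05), and Neurod1 had 2 and 71 counts and a ratio of 0.579 (0.0688 to 2.17). These exact binomial intervals cover counting error only and not the spread between cultures.

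**Figure D2:**
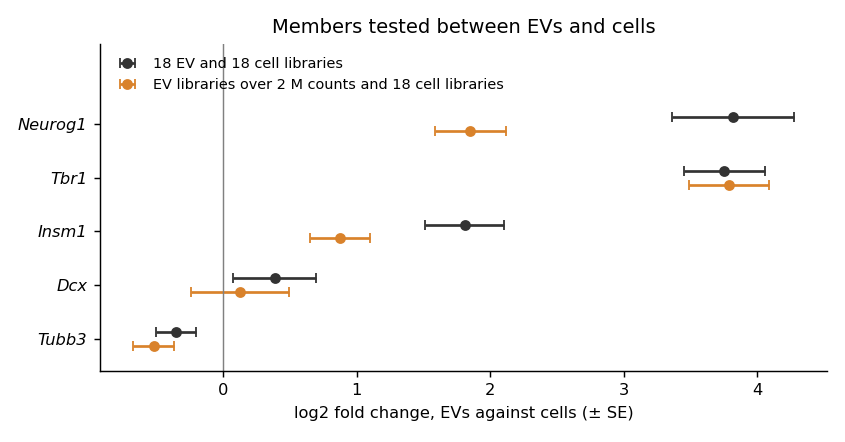
log2 fold change between EVs and cells (x axis, points, with bars of ± 1 SE) for the 5 members tested (y axis), with all 18 EV libraries (black) and with the 12 EV libraries above 2 M counts (orange). The Tbr1 points lie at 3.76 and 3.79, whereas Neurog1 falls from 3.82 to 1.85 and Insm1 from 1.81 to 0.87.

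The EV level of Neurog1 moved with the size of the library. In the 6 EV libraries under 2 M counts it was 30.0 to 149 CPM, and in the other 12 it was 2.73 to 18.7 CPM, without overlap. Of the 11880 genes tested in EVs, 72 (0.606%) separated these libraries upward in the same way and 13 (0.109%) downward. Raw Neurog1 counts were 51 to 151 in the 6 small libraries and 6 to 76 in the larger ones. For Insm1, 5 of the 6 small libraries were among the 6 highest, with 21.3 to 185.0 CPM against 10.0 to 27.5 CPM. Tbr1 did not separate in this way, with 6.01 to 48.1 CPM in the small libraries and 11.8 to 61.7 CPM in the others, and its 2 highest levels came from the 5M libraries (58.2, 61.7 and 41.4 CPM at 0, 120 and 320 mg/dL), followed by the small 3M library at 120 mg/dL (48.1 CPM).

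Without the 6 small EV libraries, the log2 fold changes were 1.85 ± 0.27 for Neurog1, 3.79 ± 0.30 for Tbr1, 0.87 ± 0.22 for Insm1 and -0.52 ± 0.15 for Tubb3, all past the threshold, and 0.13 ± 0.37 for Dcx. This setting was chosen after the data were seen. In the small libraries the summed levels of 3 marker lists of other cell types reached clearly higher maxima than in the rest. The meningeal fibroblast list (4 of 4 genes with counts) summed to 3.82 to 25.5 CPM against 1.64 to 5.60 CPM. The endothelial and pericyte list (5 of 6 genes with counts, Cldn5 at 0) summed to 2.73 to 23.8 CPM against 2.42 to 12.1 CPM. The erythroid list (2 of 3 genes with counts) summed to 0 to 3.39 CPM against 0 to 1.10 CPM. Sums of the other lists overlapped widely, as for microglia (4 of 5 genes with counts, P2ry12 at 0), with 1.09 to 14.2 CPM against 1.48 to 15.1 CPM. The part of library size and of these lists in the Neurog1 and Insm1 results was not tested beyond the values above.

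**Figure D3:**
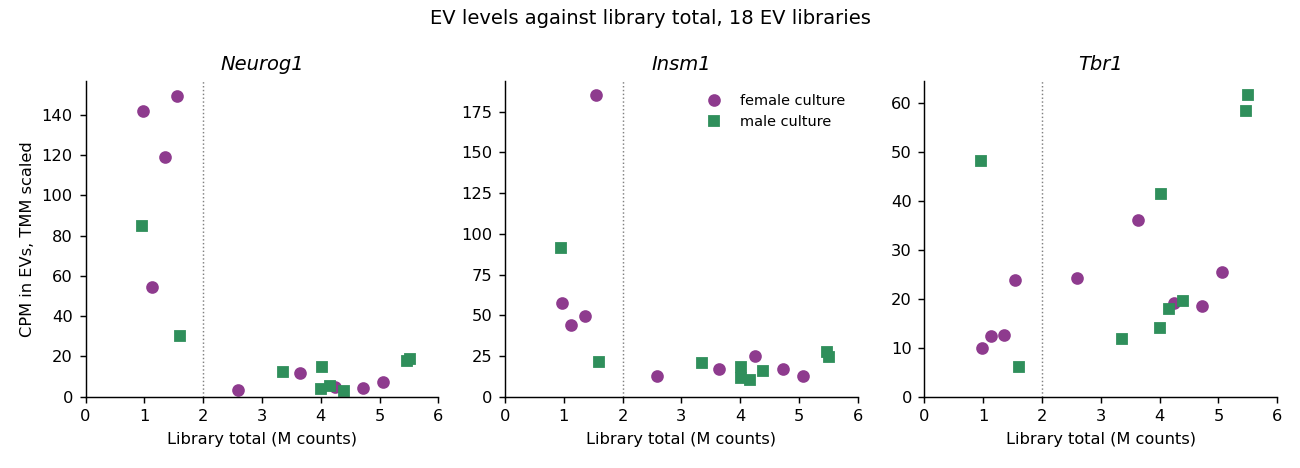
Level of Neurog1, Insm1 and Tbr1 in CPM (y axes, linear) against the total count of the library (x axes, M counts) in 18 EV libraries, from female (purple circles) and male (green squares) cultures, with a dotted line at 2 M. Left of the line Neurog1 lies at 30.0 to 149 CPM and right of it at 2.73 to 18.7 CPM, while Tbr1 is highest, at 61.7 CPM, in the largest library.

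Genes of the same pathway were described from 4 lists, to be read against 38.4% of all genes called higher and 42.2% called lower in EVs. Among 27 partners and early targets of the proneural factors, 22 were tested, of which 10 were higher and 5 lower in EVs, with a median log2 fold change of 0.12 against -0.08 over all genes. By the naming rule, the highest were the transcriptional corepressor Cbfa2t3 (3.55 ± 0.22) and the Notch-modifying glycosyltransferase Mfng (3.35 ± 0.55). The lowest were the E-protein partner Tcf12 (-1.64 ± 0.11) and the stress-response gene Gadd45g (-1.28 ± 0.18). Mfng had 15.1 ± 47.9 CPM (SD, n = 18) in EVs, so that its mean rested on few libraries. Of 29 genes of the neuronal cytoskeleton and neuronal RNA binding, 26 were tested, with 6 higher, 11 lower and a median of -0.24. The cytoskeletal regulator Dpysl3 (2.22 ± 0.33) and the Cdk5 activator Cdk5r1 (0.92 ± 0.19) led upward, and the tubulin gene Tubb2a (-3.11 ± 0.14) and the neurofilament gene Nefm (-3.00 ± 0.42) downward.

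Of 20 transcription factors of cortical neurons, 18 were tested, with 8 higher, 7 lower and a median of -0.00. Trp73 (3.02 ± 0.23) and Lhx5 (2.51 ± 0.23), both known from Cajal-Retzius neurons, were the highest, and Lmo4 (-2.38 ± 0.13) and Rorb (-2.26 ± 0.30), factors of upper cortical layers, the lowest. Of 12 repressors of neuronal differentiation, 11 were tested, with 1 higher, 8 lower and a median of -1.28. The member that was higher was the Notch effector Hes5 (1.75 ± 0.27, from 16.0 ± 13.1 CPM in cells to 50.9 ± 12.9 CPM in EVs). The inhibitors of basic helix-loop-helix factors Id2 (-2.25 ± 0.22) and Id3 (-2.24 ± 0.37) were the lowest. With library totals the median of all genes lay at -0.88 and those of the 4 lists, in the order given, at -0.66, -1.03, -0.82 and -2.12.

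The next comparisons ask whether ethanol changed the members in cells. No member passed the threshold at either dose. At 120 mg/dL, 0 of 7 members tested were called by edgeR (0.0% of 17792 genes were, with 444 at an unadjusted p under 0.05) and 0 by DESeq2. At 320 mg/dL, 0 of 7 were called by edgeR and 0 by DESeq2 (0.0393% of all genes in edgeR). Of the 17792 genes, DESeq2 called 2 at 120 mg/dL and 110 at 320 mg/dL. The tested members were all but Neurod1 and Neurod2. At an unadjusted p under 0.05 there was 1 member at each dose, Dcx at 120 mg/dL and Neurog2 at 320 mg/dL.

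Dcx had 1.23 to 7.95 CPM in the control cells (median 5.25), 1.43 to 13.3 CPM at 120 mg/dL (median 6.90) and 1.35 to 13.2 CPM at 320 mg/dL (median 5.60). The ranges overlapped almost fully, and the cultures differed more than the doses did. Within cultures, Dcx was above the control in 6 of 6 cultures at 120 mg/dL and in 4 of 6 at 320 mg/dL. In 5F it stood at 6.66, 13.3 and 12.4 CPM at 0, 120 and 320 mg/dL, in 4M at 7.95, 9.66 and 13.2 CPM and in 5M at 6.48, 9.81 and 7.74 CPM. In 4F it stood at 4.02, 4.14 and 3.45 CPM, in 3F at 2.63, 2.83 and 2.24 CPM and in 3M at 1.23, 1.43 and 1.35 CPM. The cultures with a high control level thus had the larger differences in CPM. The log2 fold change was 0.37 ± 0.15 at 120 mg/dL (95% interval 0.05 to 0.70, adjusted p = 1.00) and 0.29 ± 0.15 at 320 mg/dL (-0.03 to 0.62, adjusted p = 0.623). Without pregnancy set 5 these values fell to 0.14 at both doses.

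Neurog2 was above its control in 5 of 6 cultures at 320 mg/dL and in 3 of 6 at 120 mg/dL. In 4M it stood at 0.879, 0.851 and 1.45 CPM at 0, 120 and 320 mg/dL and in 5F at 0.236, 0.644 and 0.677 CPM. The other 4 cultures stayed at or below 0.392 CPM at every dose, which is at most 25 counts per library. The log2 fold change was 0.76 ± 0.33 at 320 mg/dL (95% interval 0.04 to 1.48, adjusted p = 0.563) and 0.45 ± 0.33 at 120 mg/dL (-0.26 to 1.17).

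Neurog1 in cells had log2 fold changes of 0.16 (95% interval -0.33 to 0.65) at 120 mg/dL and -0.15 (-0.65 to 0.36) at 320 mg/dL. At 120 mg/dL it was above the control in 6 of 6 cultures, in 5 of them by under 0.10 on the log2 scale. At 320 mg/dL it ran from -1.54 in 3F to 0.81 in 5F, so that the cultures did not move one way. Eomes had values of -0.26 (-0.72 to 0.21) and -0.30 (-0.78 to 0.19), and was below the control in 5 and 4 of 6 cultures. For Insm1, Tubb3 and Tbr1 the log2 fold changes lay between -0.10 and 0.14, with intervals within -0.56 and 0.63. The intervals of the 7 members therefore still hold differences of this size, and none was shown to be without change.

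**Figure D4:**
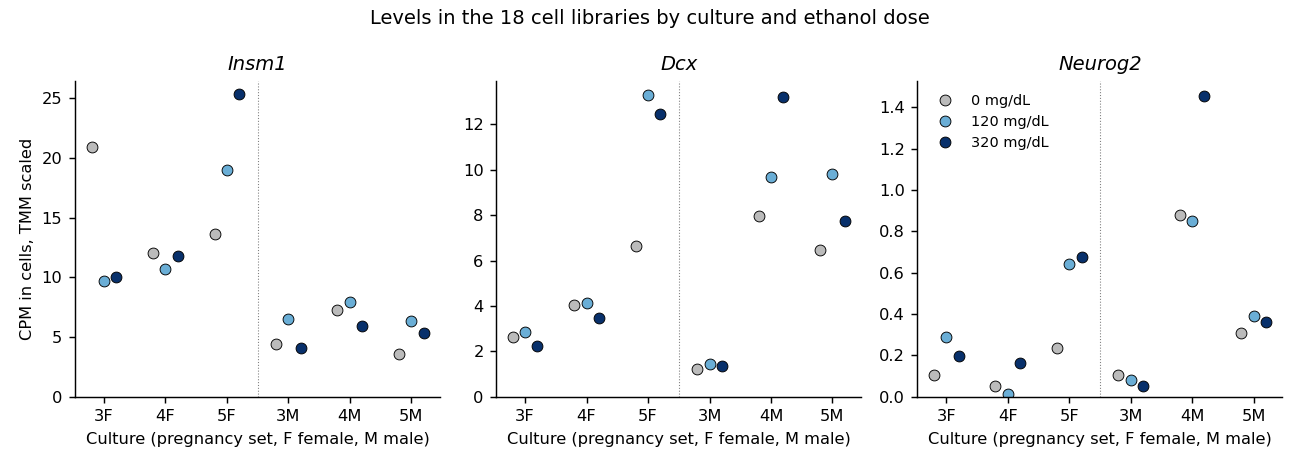
Level of Insm1, Dcx and Neurog2 in CPM (y axes, linear) in the 18 cell libraries, by culture (x axes, female left and male right of the dotted line) and ethanol dose (grey 0, light blue 120, dark blue 320 mg/dL). Insm1 is higher in every female library (9.71 to 25.4 CPM) than in every male one (3.59 to 7.92 CPM), and Dcx lies at 6.48 to 13.3 CPM in 5F, 4M and 5M and at 1.23 to 4.14 CPM in the other cultures.

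In EVs, 0 of 5 members tested were called by edgeR at 120 mg/dL, with none at an unadjusted p under 0.05 (0.00842% of 11880 genes were called), and 0 at 320 mg/dL, with Dcx alone at an unadjusted p under 0.05 (0.0842% of genes were called). DESeq2 called none of the members at either dose, and gave Dcx no adjusted p. Of the 11880 genes, it called 11 at 120 mg/dL and 267 at 320 mg/dL. Dcx in EVs was 3.08 to 9.63 CPM in controls (median 6.76), 3.00 to 13.7 CPM at 120 mg/dL (median 9.84) and 4.74 to 13.6 CPM at 320 mg/dL (median 9.32). The dose groups overlapped, and within cultures Dcx was above the control in 5 of 6 cultures at 120 mg/dL and in 6 of 6 at 320 mg/dL. Its log2 fold change was 0.31 ± 0.20 at 120 mg/dL (95% interval -0.13 to 0.74) and 0.50 ± 0.20 at 320 mg/dL (0.07 to 0.92, adjusted p = 0.331). Without the 6 small libraries the value at 320 mg/dL was 0.34 ± 0.27. Dcx counts per EV library were 3 to 44.

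Tubb3 in EVs had log2 fold changes of 0.55 ± 0.30 and 0.46 ± 0.31 at 120 and 320 mg/dL (95% intervals -0.10 to 1.20 and -0.19 to 1.12), and Tbr1 0.29 ± 0.30 and -0.09 ± 0.31. Insm1 had 0.16 ± 0.42 and 0.10 ± 0.42. Neurog1 had -0.19 ± 0.55 and -0.52 ± 0.56, with 95% intervals from -1.36 to 0.98 and from -1.71 to 0.67. These wide intervals came with opposite values in the cultures of pregnancy set 3. In 3F, Neurog1 went from 54.4 CPM in the control to 4.39 and 5.03 CPM at 120 and 320 mg/dL, and the totals of these libraries were 1.12, 4.72 and 4.24 M counts. In 3M it went from 12.4 CPM to 84.6 and 30.0 CPM, with totals of 3.35, 0.959 and 1.61 M. In both cultures the smaller libraries were the ones with more Neurog1.

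Neurog2, Eomes, Neurod1 and Neurod2 were not tested by dose in EVs. Neurog2 had summed counts of 11, 20 and 8 over the 6 EV libraries of 0, 120 and 320 mg/dL, Eomes 6, 8 and 8, Neurod2 6, 13 and 11 and Neurod1 1, 1 and 0. These sums were too small to show a difference at this depth.

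**Figure D5:**
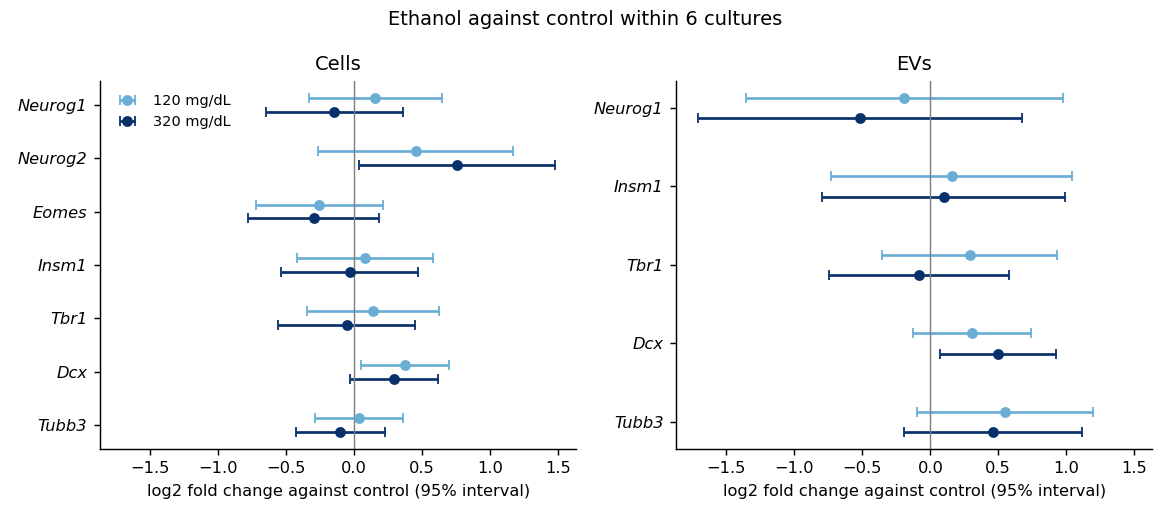
log2 fold change against control (x axes, points, with bars for the 95% interval) at 120 mg/dL (light blue) and 320 mg/dL (dark blue) for the 7 members tested in cells (left) and the 5 tested in EVs (right). Intervals that leave out 0 belong to Dcx at 120 mg/dL (0.05 to 0.70) and Neurog2 at 320 mg/dL (0.04 to 1.48) in cells and to Dcx at 320 mg/dL (0.07 to 0.92) in EVs, and none of these values passed the adjusted threshold.

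Whether ethanol shifted the partition of the members between EVs and cells was tested as a change of the EV:cell ratio within cultures. At 120 mg/dL 0 of 7 members were called in edgeR and at 320 mg/dL 0 of 7, with none at an unadjusted p under 0.05. Of 18728 genes, 0.0107% and 0.0% were called in edgeR. DESeq2 called none of the members, and 2 and 20 of these genes. For Dcx the change of the log2 ratio was -0.21 ± 0.26 and 0.11 ± 0.26, for Tbr1 0.12 ± 0.37 and -0.02 ± 0.38 and for Insm1 -0.03 ± 0.32 and 0.01 ± 0.33, at 120 and 320 mg/dL. Tubb3 had 0.44 ± 0.37 and 0.53 ± 0.38 and Neurog1 -0.40 ± 0.48 and -0.34 ± 0.49. The values of Neurog2 (0.37 ± 0.71 and -0.87 ± 0.78) and Eomes (0.91 ± 1.06 and 1.03 ± 1.04) had the largest errors.

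None of the genes of the 4 pathway lists was called for ethanol in cells, in EVs or in their ratio at either dose. In cells at 320 mg/dL, 21 of 28 tested cytoskeletal and RNA-binding genes had a positive log2 fold change (median 0.13), as had 15 of 18 cortical neuron factors (median 0.04), 14 of 22 proneural partners and targets (median 0.05) and 7 of 11 repressors (median 0.05), against a median of -0.01 over all genes. In EVs at 320 mg/dL, 10 of 11 repressors had a positive value (median 0.24, against 0.01 over all genes). With library totals the median of all genes moved to -0.12 in these cells and to -0.24 in these EVs, and the medians of the 2 lists with the largest values moved to 0.01 and -0.00.

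The study also compared cultures from female and male fetuses. In cells, Insm1 was higher in females. The 9 female libraries held 9.71 to 25.4 CPM (median 12) and the 9 male libraries 3.59 to 7.92 CPM (median 5.93), without overlap. Means were 14.8 ± 5.60 and 5.72 ± 1.48 CPM (SD, n = 9), and females were higher in 3 of 3 pregnancies. The log2 fold change was 1.35 ± 0.22 (2.54-fold, adjusted p = 0.00207), which made Insm1 the 1 member called of 7 tested (3.2% of 17052 genes were higher in females, and 5.83% were called in either direction). This fit takes the 3 libraries of a culture as independent. With the counts of a culture summed over doses, 3 female against 3 male sums, the value was 1.30 ± 0.26 and the call was lost (adjusted p = 0.394), and it was also lost without pregnancy set 5 (1.00 ± 0.23, adjusted p = 0.0623).

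Neurog1 was 0.984 to 3.59 CPM in female cells (median 2.94) and 1.15 to 2.21 CPM in male cells (median 1.85), and females were higher in 3 of 3 pregnancies. Its log2 fold change of 0.63 ± 0.21 had an adjusted p of 0.0785, and with the pregnancy set as a block it was 0.63 ± 0.19 and past the threshold (adjusted p = 0.0347), as it was in DESeq2 (0.0232). With counts summed over doses it was 0.57 ± 0.24 and not called (adjusted p = 0.748). Tbr1 had 0.70 ± 0.35 (adjusted p = 0.246), and its 3 libraries of 3M, at 0.377 to 0.650 CPM, lay below all others. Neurog2 (-0.99 ± 0.64), Eomes (-0.40 ± 0.26), Dcx (-0.22 ± 0.50) and Tubb3 (0.10 ± 0.16) were not called. Without pregnancy set 3, Eomes was lower in females by a log2 fold change of -0.90 ± 0.19 (adjusted p = 0.0162).

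In EVs, 0 of 5 members differed by sex in edgeR, with none at an unadjusted p under 0.05. Of 11037 genes, 11.1% were called in either direction, and 7.03% as higher in females. DESeq2 called 2434 of these genes and none of the members. Neurog1 had a log2 fold change of 1.67 ± 0.86 (adjusted p = 0.191) with females higher in 1 of 3 pregnancies, which was pregnancy set 4. Insm1 had 0.92 ± 0.58, Tbr1 -0.45 ± 0.40, Dcx 0.22 ± 0.34 and Tubb3 0.21 ± 0.26. Without the 6 small libraries, 4 of which were female, Neurog1 had -0.60 ± 0.51 and Insm1 -0.00 ± 0.32. The sex difference of Insm1 in EVs minus that in cells was -0.78 ± 0.56 (adjusted p = 0.414) and that of Tbr1 -1.25 ± 0.51 (adjusted p = 0.137), and 0 of 5 members were called (6.03% of 15281 genes were), with Tbr1 alone at an unadjusted p under 0.05.

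Among the pathway lists, the sex difference in cells was past the threshold for Tcf3, an E-protein partner of the proneural factors (0.56 ± 0.15, from 107 ± 13.3 CPM in males to 162 ± 44.3 CPM in females), Trp73 (0.86 ± 0.24), the doublecortin-family kinase gene Dclk1 (-0.69 ± 0.18) and the repressors Rest (-0.56 ± 0.14) and Id4 (-0.99 ± 0.27). Counts were 1 higher and 2 lower of 22 proneural partners and targets, 0 and 1 of 27 cytoskeletal genes, 1 and 1 of 18 cortical factors and 0 and 2 of 11 repressors, against 5.83% of all genes. In EVs the named genes were St18 (1.46 ± 0.41), Basp1 (0.81 ± 0.17), Gap43 (0.69 ± 0.17), Bcl11b (0.74 ± 0.23) and Trp73 (1.13 ± 0.36), higher in females, and Rnd2 (-0.89 ± 0.21), Cbfa2t2 (-0.61 ± 0.19) and Dclk1 (-0.47 ± 0.13), lower in females. Counts in EVs were 1 higher and 2 lower of 18, 3 and 1 of 21, 5 and 0 of 17 and 0 and 0 of 11 in the same order, against 7.03% of all genes called higher in females and 11.1% called in either direction. As for Insm1, the fit behind these calls treats libraries of 1 culture as separate samples. With counts summed over doses, 0 of the 5 genes named in cells and 0 of the 8 named in EVs were called, and over all genes 7 were called in cells (994 as reported) and 0 in EVs (1224 as reported, with 2229 at an unadjusted p under 0.05 in the summed counts). Without the 6 small libraries 0 of the 8 were called in EVs (30 of all genes were), and without pregnancy set 5 there were 1 of 5 in cells (Id4) and 0 of the 7 still tested in EVs (2 of all genes). Without set 4, 1 of 5 and 3 of 7 were called, and without set 3, 3 of 5 and 6 of 8. Over all genes in cells, 198 were called without set 5, 1110 without set 4 and 2095 without set 3. Over all genes in EVs, 407 were called without set 4 and 2616 without set 3.

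Whether ethanol acted differently in female and male cultures was tested as an interaction. No member and no other gene was called in edgeR, at either dose, in cells or in EVs (0.0% of 17792 and of 11880 genes). At an unadjusted p under 0.05 there was Neurog1 in EVs at 120 mg/dL (-2.22 ± 0.98, adjusted p = 1.00), a comparison in which the small library of 3F was a control and that of 3M an ethanol sample.

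Culture took up more of the variance than dose in most members. In cells, the culture took up 94.8% of the variance of log2 CPM of Dcx, 85.4% each for Neurog2 and Tbr1, 82.9% for Insm1, 66.6% for Eomes, 47.8% for Neurog1 and 46.1% for Tubb3, against a median of 73.7% over 17792 genes. Dose took up 0.523% (Insm1) to 9.48% (Neurog1), against a median of 2.64%. Sex took up 71.0% for Insm1 and 0.00981% for Dcx, and pregnancy 75.5% for Dcx. In EVs the culture took up 81.4% for Dcx and 77.6% for Neurog1, against 10.8% for Tubb3 and a median of 56.1% over 11880 genes. Dose took up 19.9% for Tubb3 in EVs, more than its culture, and 0.402% (Insm1) to 8.72% (Dcx) for the other 4 members, against a median of 6.13%. These shares are descriptions, since a culture has 3 libraries. They were not adjusted for the number of groups, and 6 cultures take up more than 3 doses even without any effect.

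Over the 18 cell libraries, which share 6 cultures, Dcx and Neurog2 had a Pearson correlation of log2 CPM of 0.78 and Neurog1 and Insm1 one of 0.69. Both Dcx and Neurog2 were high in 5F, 4M and 5M. The correlation of Neurog1 with Neurog2 was 0.06 and with Dcx 0.24. Genes most like Dcx were Cdk5r1 (r = 0.97), Adcy8 (0.97) and Ppp2r2b (0.97). Those most like Neurog2 were Bmpr1a (0.93), Gm46122 (0.92) and Nicn1 (0.92), and those most like Insm1 were Dnajc5 (0.97), Whrn (0.96) and Gm53 (0.95). Neurog1 was most like Trpm8 (0.86), Tcf3 (0.85) and Aup1 (0.82), Tbr1 most like Spire2 (0.93), Tbx2 (0.91) and Kcnk12 (0.91), Eomes most like Csnk1g1 (0.87), Orai1 (0.86) and Hmbox1 (0.86) and Tubb3 most like Laptm4b (0.83), Ldlrad4 (0.80) and Cfap298 (0.80). These correlations describe 18 libraries and carry no test.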

How the data were processed

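RNA was ribosome-depleted and sequenced by the authors, who, per the labels and the study's methods, used Trimmomatic for trimming, STAR for alignment to mm39 and HTSeq for counting. Each of the 36 deposited files holds whole, unnormalized counts for 1 library, and these counts were used as they stand. In edgeR 4.0.16 (R 4.3.3), filterByExpr with a minimum count of 10 and a minimum total of 15 chose the genes, TMM scaled the libraries and the quasi-likelihood test gave p-values. These were adjusted by Benjamini and Hochberg's method over all genes tested, with 0.05 as the threshold. EVs against cells had terms for sex and dose, ethanol the culture as a block, sex a term for dose, and the EV:cell ratio the EV and cell pair as a block with a location by culture term. DESeq2 1.42.0 was an alternative. The fits were also run on simulated counts, drawn independently for each library and without differences between cultures. That simulation cannot show how libraries that share a culture affect the calls.

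CPM used the TMM factors of all 36 libraries, and log2 CPM a prior count of 1. Cultures and pregnancies are shared by label, which is where the pairing comes from. Deviations from the condition mean had median correlations of 0.702 and 0.690 between a culture at 120 or 320 mg/dL and its control in cells, 0.175 and 0.319 in EVs, 0.0664 between an EV library and its cells and -0.0180 and -0.160 between the female and male cultures of a pregnancy in cells and EVs.

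Pathway genes named are, for each list and direction, the 2 that changed most among those called and moving one way in all 6 cultures (3 pregnancies for sex). For each member tested in cells, the 3 genes with the highest correlation of log2 CPM are named. The members and lists were chosen with earlier results of these data known. Coordinates are of GRCm39 with GENCODE vM39, and promoter windows are from RefSeq, placed by exact match. The smallest EV library (3M at 120 mg/dL) held 0.959 M counts, and 1 count in it is 1.66 CPM after TMM scaling. P-values of EVs against cells and of sex rest on the spread between single libraries, 3 per culture, those of ethanol and the ratio on the spread within cultures or pairs. The fits on counts summed over doses rest on the spread between cultures.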

Additional observations from a re-analysis of the deposited data

Results flagged for a closer look

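In groups of 6 libraries (1 per culture, at 1 location and dose), 6 of the 36 groups of the members tested held a library that stood apart from the other 5 by Dixon's test at 95%, where chance flags about 1 in 20 groups. Neurog2 in control cells was 0.879 CPM in 4M, with the nearest at 0.309. Eomes in cells at 320 mg/dL was 0.580 CPM in 5M, with the nearest at 0.329. Insm1 in cells of 5F was 19.0 CPM at 120 mg/dL (nearest 10.7) and 25.4 CPM at 320 mg/dL (nearest 11.8). In EVs of 4F at 320 mg/dL, a library of 1.55 M counts, Neurog1 was 149 CPM (nearest 30.0) and Insm1 185.0 CPM (nearest 24.9).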

How the results depend on the processing

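Values are log2 fold changes, unless they are counts of members called, and most belong to members not past the threshold in any setting, where a sign carries little. The calls of Neurog1, Tbr1 and Insm1 as higher in EVs held in every alternative run. In the ethanol and EV:cell ratio comparisons, 0 members were called in any alternative. The most genes called in any of these alternatives were 267 of 11880, in EVs at 320 mg/dL with DESeq2. Depth limits Neurog2, Eomes, Neurod1 and Neurod2, which have at most 7 counts in any EV library. The cause of the changes below was not tested.

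With library totals, values turned to -0.44 for Dcx between EVs and cells, -0.0209 for Tubb3 in cells at 120 mg/dL, -0.14 and -0.34 for Insm1 in EVs at 120 and 320 mg/dL, -0.0344 for the Tbr1 ratio at 120 mg/dL, -0.17 and -0.0159 for the Insm1 and Dcx ratios at 320 mg/dL and -0.0081 for Tubb3 by sex in cells. With no filter on low counts they turned to -0.28 for Dcx between EVs and cells, -0.0102 for Dcx by sex in EVs and 0.0187 for the Tbr1 ratio at 320 mg/dL. DESeq2 gave 0.0358 for Tbr1 in EVs, -0.0061 for the Insm1 ratio and 0.0177 for the Tbr1 ratio at 320 mg/dL. Without the location by culture term the Insm1 ratio at 320 mg/dL was -0.0064. Without the 6 small EV libraries, values were -0.18 and -0.28 for Insm1 and -0.0432 (at 120 mg/dL) for Tbr1 in EVs with ethanol, and -0.60 for Neurog1, -0.0005 for Insm1 and -0.0761 for Tubb3 by sex in EVs.

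Fits without the culture as a replicate block gave 0.0149 for Insm1 in cells at 320 mg/dL and 0.46 and 0.0209 for Neurog1 in EVs at 120 and 320 mg/dL. By sex in cells, 1 member was called as reported and 0 with counts summed over doses. With the pregnancy as a replicate block and in DESeq2, 2 were called (Insm1 and Neurog1). Over all genes, 994 were called as reported, 2953 with this block, 1845 in DESeq2 and 7 with summed counts. The blocks changed no other call.

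Leaving out 1 pregnancy in turn, the members called by sex in cells ranged from 0 (without set 5) to 3 (without set 3: Eomes, Insm1 and Neurog1). Those called in EVs ranged from 0 to 1 (Neurog1 without set 3, 2.74, adjusted p = 0.0436). In cells 2095 of 17068 genes were called without set 3, 1110 of 17345 without set 4 and 198 of 16993 without set 5. In EVs 2616 of 11306, 407 of 11008 and 2 of 9841 genes were called, in the same order. Values that changed sign ranged, in cells at 120 mg/dL, from -0.18 to 0.31 for Insm1 and -0.0670 to 0.12 for Tubb3 and, at 320 mg/dL, from -0.40 to 0.27 for Neurog1, -0.41 to 0.31 for Insm1 and -0.42 to 0.15 for Tbr1. In EVs they ranged from -0.0227 to 0.73 for Tbr1 at 120 mg/dL and from -0.44 to 0.42 for Insm1 and -0.32 to 0.34 for Tbr1 at 320 mg/dL. Ratios at 120 mg/dL ranged from -0.0484 to 1.16 for Eomes, -0.31 to 0.45 for Insm1 and -0.18 to 0.37 for Tbr1, and at 320 mg/dL from -0.54 to 0.0402 for Neurog1, -0.50 to 0.62 for Insm1, -0.0937 to 0.44 for Dcx and -0.35 to 0.29 for Tbr1. By sex they ranged, in cells, from -1.35 to 0.63 for Neurog2, -0.85 to 0.47 for Dcx and -0.0552 to 0.19 for Tubb3 and, in EVs, from -1.28 to 2.74 for Neurog1, -0.47 to 1.45 for Insm1 and -0.30 to 0.57 for Dcx.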
